A study of Homo sapiens with 48 samples.

Results

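GDF15 and TNFSF9 are genes for secreted or cell-surface signals that were higher in embryoid bodies after CEPT than after Y-27632. They were chosen by that difference, so their fold change between the treatments is given here as a description, with no test. All probes carrying either gene's symbol were taken, which gave 6 of the 1113 probes and 2 of the 452 genes measured. Their levels in stem cells and in 3 directed lineages are not part of that difference, although the choice was made with earlier results of these data known. How the genes varied together among libraries of the same treatment was not used by the rule, but it was measured in the libraries that were.

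GDF15 encodes growth differentiation factor 15, a secreted and distant member of the TGF-beta superfamily. Its receptor complex is GFRAL with RET, found mainly in the hindbrain, and its transcript is widely used as a marker of cellular stress because the p53 pathway and the integrated stress response (through ATF4 and CHOP, the product of DDIT3) can induce it. TNFSF9 encodes 4-1BB ligand, a membrane protein of the TNF superfamily that is best known on antigen-presenting cells, where it stimulates T cells through the receptor CD137 (TNFRSF9).

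Cells of the human embryonic stem cell line WA09 (also called H9) were measured by RASL-Seq, in which adjacent DNA probes on captured polyadenylated RNA are joined by a ligase and the joined pairs counted by sequencing. Embryoid bodies, which are floating aggregates of differentiating cells, were seeded at 20000 cells per well and kept in E6 medium for 7 days, and CEPT or Y-27632 was present for the first 24 hours only. Y-27632 inhibits the kinase ROCK, and CEPT combines the ROCK inhibitor chroman 1, the caspase inhibitor emricasan, polyamines and trans-ISRIB, an inhibitor of the integrated stress response. There were 16 libraries per treatment, called CEPT EB and Y27 EB, and 4 each of undifferentiated hESC, of ectoderm (100 nM LDN-193189 and 2 µM A83-01 in E6 medium for 6 days) and of mesoderm and endoderm (commercial kits for 5 days). All groups came from this single line. The labels do not say whether libraries are separate cultures, so p-values measure the spread between libraries, which may be technical.

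Library totals ran from 1814266 to 4794912 reads in CEPT EB. They ran from 379810 (replicate 15) to 5577868 in Y27 EB and from 1773969 to 4227384 in the other groups. Summed levels of the marker lists were highest in the group they name: the median was 20689.7 CPM (counts scaled to a fixed total, using the effective library size) for pluripotency genes in hESC, 9899 for ectoderm genes in ectoderm, 3693 for mesoderm genes in mesoderm and 10393 for endoderm genes in endoderm. CEPT EB replicate 7 stood apart in both genes described here, and values are given with and without it. In these bulk samples, fewer cells of a type and less RNA per cell cannot be told apart.

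Both genes lie on chromosome 19. GDF15 spans chr19:18386158-18389176 and TNFSF9 spans chr19:6531026-6535924, both on the plus strand (RefSeq, GRCh38.p14). By the positions in their names, GDF15 probes 1190 and 1191 lie in the coding sequence, in exon 1 and exon 2, at positions 176 and 907 of transcript NM_004864, and probe 1192 lies in the 3′ UTR part of exon 2 at position 1112. TNFSF9 probe 1272 lies in the coding part of exon 3 at position 440 of NM_003811, and probes 1273 and 1274 lie in its 3′ UTR at positions 1053 and 1307. These parts were read from GENCODE 29 transcripts paired with RefSeq. The RefSeq version behind the probe names is not stated, so a position near an edge could shift.

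The 150 bases directly before each RefSeq start are shown because the genes moved together among libraries; capitals mark TATAAA and the GC box GGGCGG on either strand (RefSeq, GRCh38.p14, plus strand, chr19:18386008-18386157 for GDF15 and chr19:6530876-6531025 for TNFSF9).
GDF15: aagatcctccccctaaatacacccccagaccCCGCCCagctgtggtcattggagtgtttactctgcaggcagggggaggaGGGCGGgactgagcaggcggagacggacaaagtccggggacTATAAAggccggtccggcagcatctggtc
TNFSF9: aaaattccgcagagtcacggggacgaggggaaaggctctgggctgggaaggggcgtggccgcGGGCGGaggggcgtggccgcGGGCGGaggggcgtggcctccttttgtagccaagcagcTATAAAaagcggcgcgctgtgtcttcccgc

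Each window held 1 TATAAA on the plus strand, 29 to 24 bases before the start in GDF15 and 30 to 25 bases before it in TNFSF9. Over 250 bases and both strands, TATAAA occurred in 10.7% of 35116 RefSeq promoters. Each also held 2 GC boxes, a motif found in 42.6% of these promoters. The cAMP response element TGACGTCA (1.65% of promoters), the ATF4 composite element TGATGNAA (3.14%) and the AP-1 site TGANTCA (6.57%) had no match in the 250 bases before either start, and none of the motifs overlapped. These matches describe the letters only.

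Summed over its probes, GDF15 was at 34.4 CPM in the lowest, 80.2 in the median and 872 in the highest CEPT EB library, and at 3.86, 12.6 and 60.6 CPM in Y27 EB. All 16 CEPT EB libraries were above the Y27 EB median, 10 of them above every Y27 EB library. The overlap came from a single Y27 EB library, replicate 11 at 60.6 CPM, since the other 15 were below every CEPT EB library. Means were 131 ± 201 CPM after CEPT against 15.5 ± 13.6 after Y-27632 (SD, n = 16 each). CEPT EB replicate 7 carried much of that spread, with 3760 reads and 872 CPM against 154 CPM in the next library, and without it the CEPT EB mean was 81.4 ± 38.1 CPM (SD, n = 15). The fitted log2 fold change of the summed gene was 3.07 ± 0.45 (SE), or 8.40-fold, and 2.35 ± 0.32, or 5.08-fold, without that library.

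TNFSF9, summed in the same way, was at 22.9, 38.5 and 249 CPM in the lowest, median and highest CEPT EB library. In Y27 EB it was at 2.48, 9.96 and 21.8 CPM. The treatments did not overlap in the summed gene, although the highest Y27 EB library (replicate 4) and the lowest CEPT EB library (replicate 1) were close. Means were 56.4 ± 55.1 CPM after CEPT against 10.3 ± 5.14 after Y-27632 (SD, n = 16 each). The highest library was again CEPT EB replicate 7, with 1075 reads, against 79.8 CPM in the next, and the mean without it was 43.5 ± 20.3 CPM (SD, n = 15). The log2 fold change was 2.46 ± 0.34 (SE), or 5.51-fold, and 2.06 ± 0.27, or 4.16-fold, without that library.

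By probe, the log2 fold changes were 3.15 ± 0.56 (probe 1190), 3.26 ± 0.52 (1191) and 2.60 ± 0.58 (1192) for GDF15 and 2.33 ± 0.67 (1273) and 2.67 ± 0.34 (1274) for TNFSF9 (SE, edgeR). The fold of probe 1273 rests on few reads in Y27 EB, with a median of 7.5 and 0 reads in 6 of 16 libraries. It had 0 reads in 1 CEPT EB library too. GDF15 probes 1190, 1191 and 1192 had 0 reads in 3, 1 and 1 Y27 EB libraries. TNFSF9 probe 1272, the weakest, did not pass the count filter of this fit, with a median of 3.15 CPM after CEPT and 1.26 after Y-27632, so 5 of the 6 probes are described by a fold. They ranked 1, 2, 4, 5 and 9 among 867 probes by fold, which is how they came to be chosen. In the same fit 23.6% of the 867 probes passed an adjusted p of 0.05, and 10.6% did so with higher levels after CEPT. TNFSF9 probe 1274 was among the 2 probes (0.231%) whose treatments did not overlap. Without CEPT EB replicate 7 the GDF15 folds fell most, to log2 values of 2.40, 2.58 and 1.80 in probes 1190, 1191 and 1192, and DESeq2 gave 1.81 for probe 1192.

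The composition of the treatments also differed, and its part in these folds was not tested. The 10 most abundant probes took 46.3% ± 5.79 of reads after CEPT against 40.4% ± 5.43 after Y-27632 (SD, n = 16 each). The reference genes used for 1 of the scalings below (ACTB, GAPDH, PGK1 and RPL13A) had 11 tested probes, with 1 call by edgeR under TMM. This was RPL13A probe 608, higher in CEPT EB at 109959 CPM against 64957.7 (log2 fold change 0.75 ± 0.23, SE, adjusted p 0.0128). Summed, these genes had a median of 170529 CPM after CEPT against 130608 after Y-27632, with overlap. Of 11 tested probes of the neural crest list (FOXD3, NGFR, SNAI2 and SOX10, 4 of 8 genes measured), 7 were lower and 0 higher in CEPT EB under TMM, where 113 of all 867 probes were lower. The lower count was 5 with DESeq2, 8 with library totals and 10 with reference gene totals. The summed level ran from 2726 to 4035 CPM after CEPT against 3233 to 5474 after Y-27632. Of 15 tested ectoderm marker probes, 3 (all OTX2) were higher and 2 (both PAX3) lower under TMM, against 2 and 2 with library totals, 1 and 2 with reference gene totals, 5 and 2 with median-ratio or upper-quartile factors and 6 and 2 with DESeq2. The summed ectoderm list ran from 1997 to 4992 CPM after CEPT against 2073 to 5030.0 after Y-27632. Mesoderm markers (2 HAND1 probes tested) and endoderm markers (6 probes) had 0 calls by edgeR and by DESeq2, with 1 and 2 probes at an unadjusted p under 0.05. The other lists had 1 call under TMM each among 19 pluripotency probes (SOX2, lower, against 0 lower and 1 higher with median-ratio factors, 7 lower with library totals and 10 lower with reference gene totals) and 2 trophoblast or amnion probes (ISL1, lower, 0 by DESeq2), and 0 among 4 endothelial or blood probes by edgeR and DESeq2 (0 at an unadjusted p under 0.05). Summed mesoderm and endoderm levels overlapped between the treatments, at 7.17 to 414 and 0 to 118.5 CPM in CEPT EB against 0 to 3819 and 3.11 to 202 in Y27 EB.

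**Figure D1:**
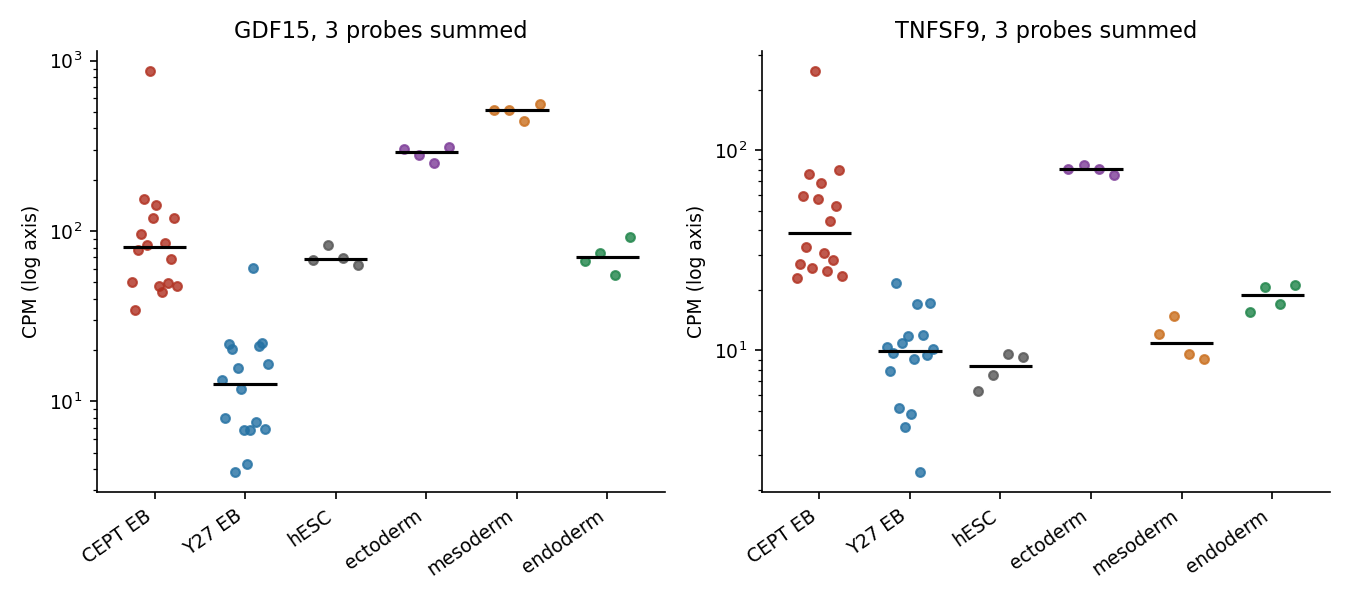
GDF15 (left) and TNFSF9 (right), probes summed, in CPM on a log axis, with 1 point per library in each of the 6 groups and a line at the group's median. CEPT EB libraries lie above nearly all Y27 EB libraries for both genes, replicate 7 stands apart at 872 and 249 CPM, and the highest control group is mesoderm for GDF15 and ectoderm for TNFSF9.

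The control cultures show where each gene stands without embryoid body formation. GDF15 was at 67.4, 82.8, 69.3 and 63.5 CPM in the hESC libraries and at 66.7, 74.5, 55.3 and 91.9 CPM in endoderm, so these groups overlapped. It was at 304, 279.6, 252 and 311 CPM in ectoderm and at 516, 517, 445 and 554 CPM in mesoderm, and neither group overlapped any other control group. The share of all probes whose control groups do not overlap was not counted, so this separation is a description only. The means were 70.8 ± 8.39 in hESC, 72.1 ± 15.4 in endoderm, 287 ± 26.6 in ectoderm and 508 ± 45.8 in mesoderm (SD, n = 4 each).

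All 3 GDF15 probes were called higher in ectoderm than in hESC, with log2 fold changes of 1.89 ± 0.17, 1.86 ± 0.16 and 2.18 ± 0.24 (SE) and adjusted p of at most 8.78e-08 (edgeR's quasi-likelihood test, Benjamini-Hochberg adjusted, as for all calls here). In mesoderm against hESC they were called higher as well, at 2.72 ± 0.17, 2.56 ± 0.16 and 3.07 ± 0.23, with adjusted p of at most 5.32e-10. Such calls were common on this panel: 43.2% of 903 tested probes were called higher in ectoderm and 34.0% higher in mesoderm. In endoderm against hESC no GDF15 probe was called, at -0.06 ± 0.17 to 0.15 ± 0.19 and adjusted p of 0.481 to 0.794, where 38.4% of probes were called higher. No GDF15 probe of this contrast had an unadjusted p under 0.05 either, and DESeq2 called 0. Other scalings called probes in opposite directions there: reference gene totals called all 3 higher (0.54 to 0.74), and upper-quartile factors called probe 1191 lower (-0.41, adjusted p 0.0277). All 3 probes were lower in ectoderm than in mesoderm (-0.83 ± 0.15, -0.71 ± 0.15 and -0.89 ± 0.19, adjusted p of at most 0.000306; 38.2% of probes were called lower) and higher in ectoderm than in endoderm (1.75 ± 0.17 to 2.09 ± 0.23; 39.9% higher). All 3 were also lower in endoderm than in mesoderm (-2.58 ± 0.16 to -2.98 ± 0.22; 37.2% lower). The order was thus mesoderm, ectoderm, then endoderm and hESC, which did not differ beyond their spread. Summed over probes, the fold over hESC was 7.40 in mesoderm, 4.10 in ectoderm and 1.15 in endoderm.

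TNFSF9 was at 6.26, 7.49, 9.64 and 9.29 CPM in hESC and at 12.1, 14.9, 9.63 and 9.03 CPM in mesoderm, with overlap between them. It was at 15.5, 20.8, 17.0 and 21.2 CPM in endoderm, above every hESC and mesoderm library. Ectoderm was highest, at 80.8, 84.5, 80.5 and 75.3 CPM, with no overlap with another control group. As for GDF15, the share of all probes separated in this way was not counted. The means were 8.17 ± 1.58, 11.4 ± 2.68, 18.6 ± 2.79 and 80.3 ± 3.81 CPM in the same order (SD, n = 4 each). The hESC values rest on 13 to 18 reads per library, so their counting error is large.

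All 3 TNFSF9 probes were called higher in ectoderm than in hESC (log2 fold changes of 3.80 ± 0.49, 2.45 ± 0.45 and 3.23 ± 0.21, adjusted p of at most 6.27e-05). They were also called higher than in mesoderm (2.56 ± 0.38 to 3.01 ± 0.44; 42.0% of all probes were called higher) and than in endoderm (1.44 ± 0.38 to 2.13 ± 0.38). In probe 1272 the first of these folds rested on 1 to 5 hESC reads and was 4.60 without hESC replicate 3, and the fold over mesoderm, 2.56, was 3.16 without mesoderm replicate 2. In endoderm against hESC, probes 1272 (1.66 ± 0.59, adjusted p 0.0153) and 1274 (1.10 ± 0.24, adjusted p 0.000326) were called higher and probe 1273 (1.01 ± 0.52, adjusted p 0.0808) was not. The call of probe 1272 there was lost without hESC replicate 1 (adjusted p 0.0530), and its fold was 2.47 on the log2 scale without hESC replicate 3. Probes 1273 (1.57 ± 0.49) and 1274 (0.77 ± 0.21) were called higher in endoderm than in mesoderm, where 39.0% of probes were called higher, but neither was with library totals alone. No TNFSF9 probe was called in mesoderm against hESC (-0.55 ± 0.59 to 1.24 ± 0.60), 0 had an unadjusted p under 0.05, DESeq2 called 1, and the summed gene was 1.47-fold higher (adjusted p 0.0238). The order was ectoderm, endoderm, mesoderm and hESC. In the main edgeR fits under TMM the last pair differed in the summed gene only, while alternatives called 0 to 2 TNFSF9 probes. In sums, TNFSF9 in ectoderm was 9.99-fold the hESC level, 6.79-fold the mesoderm level and 3.84-fold the endoderm level.

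In a fit of all 48 libraries, which shares the wider spread of the EB libraries with the controls, several of these calls were lost. GDF15 then had 0 probes called in ectoderm against hESC (adjusted p of 0.0598 to 0.0728), against mesoderm (0.259 to 0.287) and against endoderm (0.0638 to 0.116), and kept all 3 in mesoderm against hESC and in endoderm against mesoderm. TNFSF9 kept 2 probes in ectoderm against hESC and 1 each in ectoderm against mesoderm and against endoderm, and had 0 in endoderm against hESC and against mesoderm. Of the 1016 probes tested in that fit, 637 were called in ectoderm against hESC, 620 against mesoderm and 627 against endoderm. In mesoderm against hESC 540 were called, in endoderm against hESC 569 and in endoderm against mesoderm 587. Scaling on reference gene totals raised the log2 folds over hESC of all members, for example from 1.89 to 2.62 for GDF15 probe 1190 in ectoderm, with the same direction for every called probe.

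**Figure D2:**
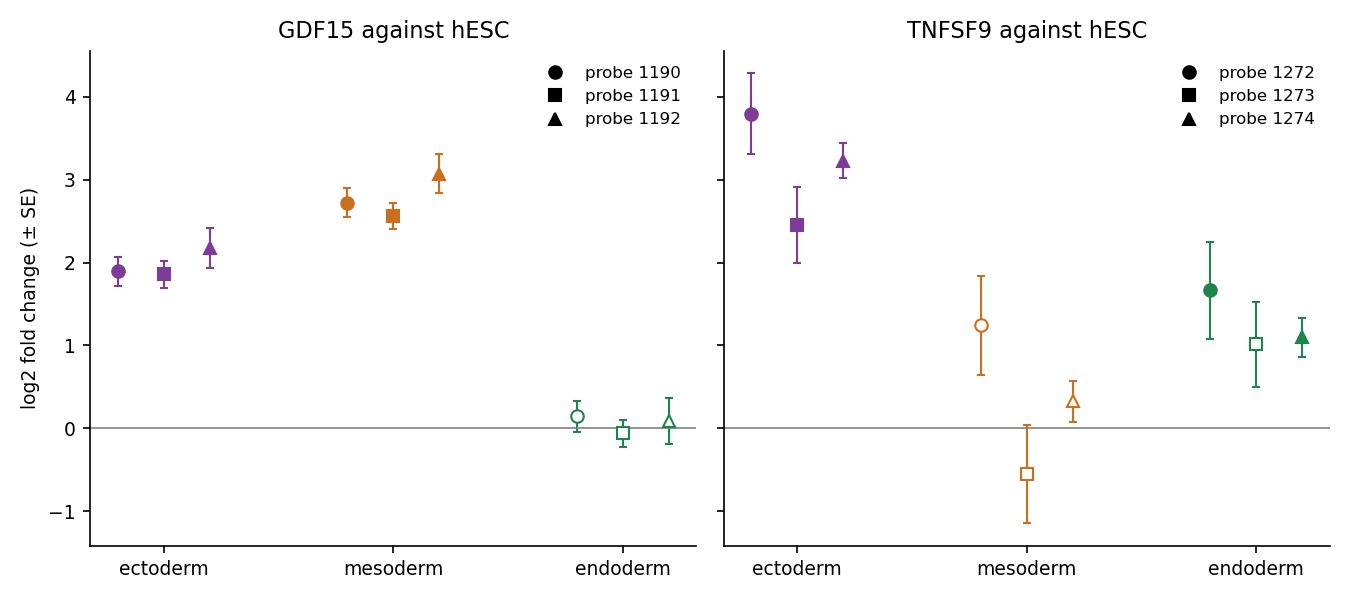
Log2 fold change (± SE) of each probe of GDF15 (left) and TNFSF9 (right) in ectoderm, mesoderm and endoderm against hESC, 4 libraries a group. Filled symbols have an adjusted p under 0.05 in edgeR: all GDF15 probes in ectoderm and mesoderm and none in endoderm, and all TNFSF9 probes in ectoderm, none in mesoderm and 2 in endoderm.

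Set beside the stem cells they came from, the embryoid bodies placed the genes differently. These levels are a description, because the EB libraries were used for the choice. For GDF15, all 16 Y27 EB libraries were below every hESC library, while 8 CEPT EB libraries were above and 6 below every hESC library. On the log2 CPM scale the mean difference from hESC was -2.49 in Y27 EB and 0.28 in CEPT EB. With other scalings or without CEPT EB replicate 7 and Y27 EB replicate 15 these ran from -2.58 to -1.57 and from 0.06 to 0.76. For TNFSF9, all 16 CEPT EB libraries were above every hESC, mesoderm and endoderm library, at a mean difference from hESC of 2.38 (2.22 to 2.82), while Y27 EB overlapped hESC at 0.16 (0.08 to 1.04, the highest with reference gene totals). Thus GDF15 after CEPT lay around the hESC level and after Y-27632 below it, and TNFSF9 after Y-27632 lay around the hESC level and after CEPT above it.

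No CEPT EB library except replicate 7 reached the ectoderm or mesoderm levels of GDF15: the other 15 were below every library of both groups. For TNFSF9, 13 CEPT EB libraries were below every ectoderm library and replicate 7 alone was above. In group means GDF15 ran from mesoderm (508 CPM) through ectoderm, CEPT EB, endoderm and hESC to Y27 EB (15.5 CPM), and CEPT EB, endoderm and hESC overlapped. Y27 EB replicate 11 (60.6 CPM) lay within the CEPT EB and endoderm ranges as well. TNFSF9 ran from ectoderm (80.3 CPM) through CEPT EB, endoderm, mesoderm and Y27 EB to hESC (8.17 CPM), and mesoderm, Y27 EB and hESC overlapped. For this gene Y27 EB replicates 11 and 15 (17.1 and 17.2 CPM) also lay within the endoderm range, and replicate 4 (21.8 CPM) above it. The value of Y27 EB replicate 15 rests on 10 reads, so its counting error is large. CEPT EB replicates 5 and 15 (76.1 and 79.8 CPM) lay within the ectoderm range. Spread was far wider in the embryoid bodies than in the controls, with a coefficient of variation of 154% for GDF15 in CEPT EB, 88.2% in Y27 EB and 9.01% to 21.3% in the controls. For TNFSF9 it was 97.7%, 50.1% and 4.75% to 23.5%. That CEPT EB exceeded Y27 EB here rested on replicate 7. Without it the CEPT EB SD was 38.1 on a mean of 81.4 CPM for GDF15 and 20.3 on 43.5 CPM for TNFSF9. On the log2 CPM scale the SD without it was 0.67 and 0.65, against 0.99 and 0.76 in Y27 EB.

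Among CEPT EB libraries, those with more GDF15 had more TNFSF9. These libraries also entered the choice, and replicate 7, which raised the folds of both genes, raised this relation too. Pearson's r of the log2 CPM was 0.92 (permutation p 3.0e-05, adjusted 6.0e-05) and Spearman's rho 0.84 (permutation p 7.0e-05, adjusted 0.00014) over 16 libraries, two-sided with adjustment over the 2 treatments. Without replicates 2 and 7, the farthest from the GDF15 median, r was 0.82, and without replicate 7 alone it was 0.82 (permutation p 0.00038) with rho 0.81. Both genes were above their CEPT EB medians in replicates 5, 7, 8, 9, 12 and 15 and below them in replicates 1, 2, 10, 11, 13 and 16. Replicates 3 and 14 were above the median for TNFSF9 only, and replicates 4 and 6 for GDF15 only.

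Among Y27 EB libraries r was 0.54 (permutation p 0.030, adjusted 0.030) and rho 0.54 (permutation p 0.032). Without replicates 5 and 11, the farthest from the median, r was 0.42. The permutation p was above 0.05 without replicate 5, 9 or 11 (r of 0.50, 0.48 and 0.47), with library totals alone (r of 0.38) and with the most abundant probe of each gene (r of 0.36), so this relation rests on few libraries. In Y27 EB both genes also moved with the share of reads in the 10 most abundant probes, at r of 0.71 for GDF15 and 0.68 for TNFSF9 (adjusted permutation p 0.0061 each). In CEPT EB the same r were 0.24 and 0.14 (adjusted permutation p 0.51 and 0.63). The part of this share in the relation between the genes was not tested. Correlations with library total ran from -0.32 to 0.26, with adjusted permutation p of 0.47 to 0.67. The difference between the treatments' correlations was not tested either.

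**Figure D3:**
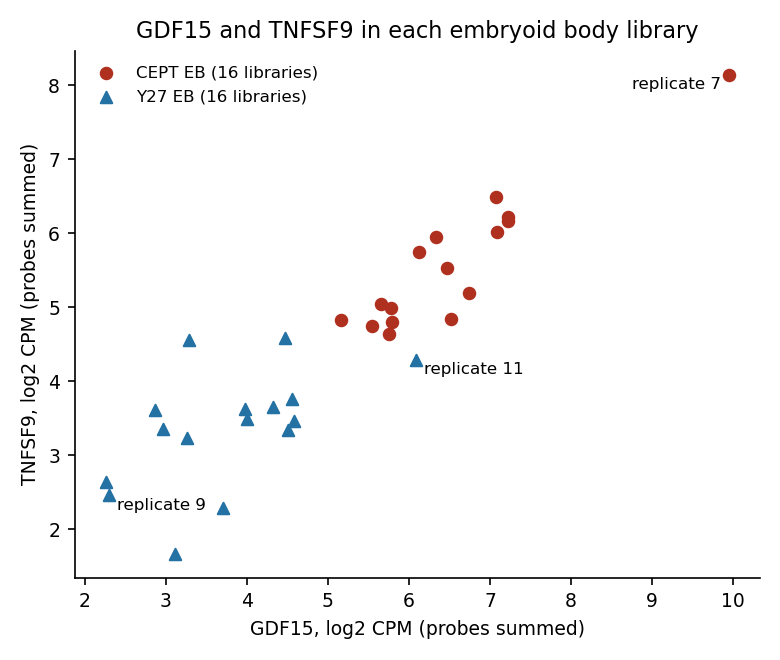
TNFSF9 against GDF15 in each EB library, as log2 CPM of the summed probes, with circles for the 16 CEPT EB and triangles for the 16 Y27 EB libraries. Within CEPT EB the points run along a line (r of 0.92, and 0.82 without replicate 7 at the top right), while the Y27 EB points spread more loosely (r of 0.54).

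Probes of the same gene followed each other to different degrees within a treatment. For GDF15, r between probe pairs ran from 0.34 to 0.79 over 16 libraries. For TNFSF9, probes 1273 and 1274 had r of 0.71 in CEPT EB and 0.50 in Y27 EB, while pairs with probe 1272 ran from -0.13 to 0.34. Probe 1272 had at most 30 reads in any Y27 EB library and was at 0 in 3 of them. Levels are not compared between the genes, since probes can differ in efficiency.

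Among 332 genes ranked by their mean within-treatment r with each member, GDF15 and TNFSF9 were each other's highest, at a mean r of 0.73 (0.92 in CEPT EB and 0.54 in Y27 EB). After that, GDF15 was most like IFITM1 (an interferon-induced membrane protein, 0.72), the metallothioneins MT1G (0.67) and MT1X (0.65), which bind metal ions, UGP2 (an enzyme that makes UDP-glucose, 0.65) and CD9 (a tetraspanin, 0.64). TNFSF9 was most like ANXA1 (annexin A1, a phospholipid-binding protein, 0.72), UGP2 (0.59), EPCAM (an epithelial adhesion molecule, 0.58), IFITM1 (0.56) and MT1G (0.56). The pair's first rank rested on CEPT EB, and the ranking was not repeated without replicate 7. In Y27 EB, GDF15 had a higher r with IFITM1 (0.74), MT1G (0.64), MT1X (0.66), UGP2 (0.74) and CD9 (0.78) than with TNFSF9. There TNFSF9 had a higher r with ANXA1 (0.61), UGP2 (0.68) and EPCAM (0.56) than with GDF15, and a lower one with IFITM1 (0.43) and MT1G (0.48). All these r are descriptions over 16 libraries per treatment that share depth and scaling. Of these genes ANXA1 was also higher in CEPT EB, with a median of 209.8 CPM against 32.4 in Y27 EB and a log2 fold change of 2.16 ± 0.57 (SE, adjusted p 0.0044, edgeR on summed genes). EPCAM followed at 1.42 ± 0.34 (adjusted p 0.0022), then IFITM1 at 1.14 ± 0.37 (adjusted p 0.019), MT1X at 0.74 ± 0.29 (adjusted p 0.048) and UGP2 at 0.68 ± 0.22 (adjusted p 0.018). MT1G at 0.92 ± 0.45 (adjusted p 0.13) and CD9 at 0.78 ± 0.37 (adjusted p 0.12) did not pass the test. With reference gene totals ANXA1 (1.70, adjusted p 0.014) and EPCAM (0.93, adjusted p 0.021) were still called and IFITM1 (adjusted p 0.080), MT1X (0.37) and UGP2 (0.12) were not. IFITM1 (adjusted p 0.060) and MT1X (0.14) were also not called without CEPT EB replicate 7, nor MT1X with library totals (adjusted p 0.19).

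Across the 6 group means of log2 CPM, the genes were less alike, at r of 0.40. Among 388 genes, GDF15 was most like the serine protease PRSS23 (0.89) and the death receptor TNFRSF10B (0.83), both highest in ectoderm. PRSS23 was at 867 CPM in ectoderm, 235 in mesoderm and 12.3 in hESC. TNFSF9 was most like the Notch target HES5 (0.83), the endocytic receptor LRP2 (0.83) and the epithelial regulator GRHL3 (0.82). HES5 was at 85.3 CPM in ectoderm and listed at 0 in hESC, mesoderm and endoderm, and LRP2 was at 294 CPM in ectoderm and 37.2 in CEPT EB. With 6 points per gene, such likeness is a ranking only.

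None of the genes listed for GDF15 signalling (7), CD137 signalling (6), other TNF superfamily ligands (17) or NF-kB targets (16) was among the 452 genes analysed, so receptors and partners of the members were not analysed here. Of 28 receptors of the TNF superfamily, 4 had tested probes, 10 in all. Under TMM, calls in edgeR fell on FAS alone, a death receptor that is also a p53 target: all 3 FAS probes were higher in CEPT EB. Of the 10 probes, 1 was higher without replicate 7, 1 was higher and 1 lower with the replicate block, 0 were higher and 4 lower with library totals, and 0 were higher and 6 lower with reference gene totals. FAS probe 245 was at 39.9 CPM after CEPT against 26.8 after Y-27632, a log2 fold change of 0.56 ± 0.17 (SE, adjusted p 0.014). TNFRSF10B, TNFRSF1A and NGFR had none called under TMM. Of the TGF-beta superfamily ligands other than GDF15, GDF3 and LEFTY1 had 3 tested probes with 0 calls by edgeR or DESeq2, and 0 of them had an unadjusted p under 0.05.

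Of 20 tested probes of 8 p53 target genes, 8 were called higher and 3 lower in CEPT EB under TMM, against 0 higher and 7 lower with library totals, 0 higher and 9 lower with reference gene totals, and 5 and 1 without CEPT EB replicate 7. Over all probes these scalings shift the median by -0.31 and -0.47 on the log2 scale, and directions are relative to that shift. The reference genes themselves summed to more after CEPT under TMM, at a median of 170529 CPM against 130608. The median of the list was 0.11, beside -0.04 over all 867 probes, where 23.6% were called and 10.6% were called higher. Under TMM the higher probes belonged to CDKN1A (the cell cycle inhibitor p21), BBC3 (the pro-apoptotic protein PUMA), FAS and GADD45A (a growth arrest protein), and the lower ones to XPC (DNA damage recognition) and BTG2 (an antiproliferative protein). CDKN1A probe 102 was at 103 CPM after CEPT against 63.4 after Y-27632 (log2 fold change 0.69 ± 0.16, SE, adjusted p 0.0022), and XPC probe 800 at 37.3 and 59.9 CPM (-0.70 ± 0.14, adjusted p 0.00034).

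Of 11 tested probes for integrated stress response genes, DDIT3 probe 849 alone was called under TMM, higher in CEPT EB at 583 CPM against 307 (log2 fold change 0.91 ± 0.21, SE, adjusted p 0.0020). The other DDIT3 probe, 164, was at 0.13 ± 0.50. The transcription factor gene ATF4, the chaperone gene HSPA5 and the serine synthesis gene PSAT1 had log2 fold changes of -0.25 to 0.03 and no call under TMM, but with library totals 7 and with reference gene totals 8 of the 11 probes were called lower, with 1 higher under each. Of 20 tested probes of NRF2 targets, 2 of thioredoxin (TXN) were higher and 3 lower (GCLM and TXNRD1) under TMM, against 1 and 11 with library totals. In the lists of cell death genes (6 probes) and immediate early genes (3 probes of MYC), MCL1 probe 462 was called lower under TMM, at 21.3 CPM after CEPT and 37.9 after Y-27632, while 3 of the 6 cell death probes were lower with library totals and 5 with reference gene totals, and the MYC probes had adjusted p of 0.157 to 0.570, with 0 called by DESeq2 and 0 at an unadjusted p under 0.05.

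**Figure D4:**
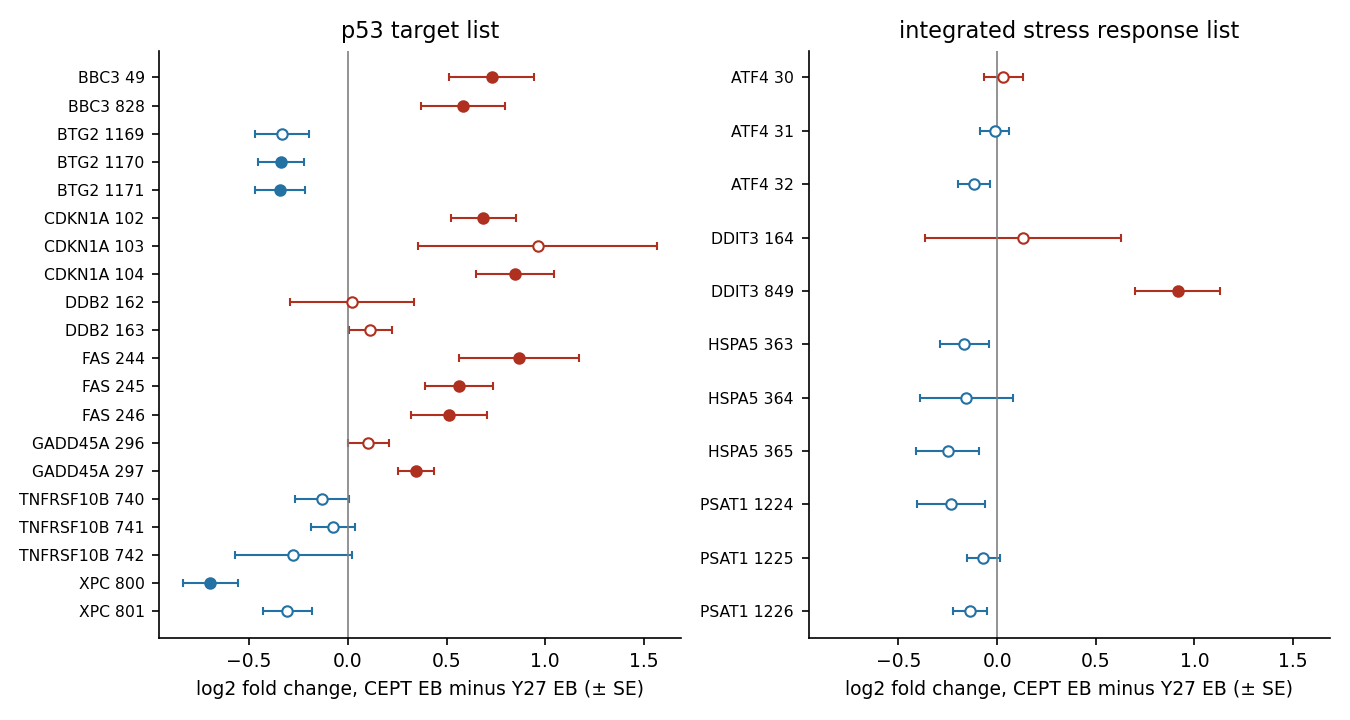
Log2 fold change of CEPT EB minus Y27 EB (± SE, TMM scaling) for each tested probe of the p53 target list (left, 20 probes) and the integrated stress response list (right, 11 probes), filled where the adjusted p was under 0.05. On the left 8 filled probes lie above 0 and 3 below, and on the right DDIT3 849 alone is filled; the 8 were not called higher with library totals or reference gene totals.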

How the data were processed

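The deposited values are raw counts of reads per probe, made by the authors with a custom aligner, per the labels; its version and the probe sequences are not given in the sources used here. The build hg38 is named in the submitters' processing notes. The merged table repeated the counts of all 48 sample tables, and 16 of its columns matched no sample and were not used. Reads are PCR products without molecular identifiers.

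Counts were analysed with edgeR 4.0.16 in R 4.3.3: filterByExpr by group, TMM, the robust quasi-likelihood test, two-sided, and Benjamini-Hochberg adjustment over all tested probes at 0.05, in a fit of the 32 EB libraries and another of the 16 control libraries. CPM came from a TMM scaling of all 48 libraries, and a prior count of 2 was added for log2 CPM. Within-treatment correlations used log2 CPM of the summed gene from a scaling of the EB libraries and 100000 resamples. Alternatives were DESeq2 1.42.0, other scalings and filters, a replicate block, a fit of all libraries and each library left out. Figures used matplotlib 3.10.9.

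The members and the gene lists were chosen with earlier results of these data known. Named genes were all member probes, listed genes with a probe called in the EB fit, the 5 genes most like each member within treatments and the 3 most like it across groups, among genes with at least 50 reads on average (across groups, in the highest group). A gene chosen by this rule across groups is not reported here. Listed genes without a call were named beside them after their values were seen. In simulated counts, 89.9% of 189 changed probes were called among 835 in the EB design and 92.2% of 193 among 878 in the design of ectoderm against hESC, with 3.95% and 3.78% false calls. The simulated folds went up and down alike, and in fewer probes than were called in ectoderm against hESC (738 of 903). These rates therefore do not test the scalings on which the calls depend.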

Additional observations from a re-analysis of the deposited data

Results flagged for a closer look

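In ectoderm, TNFSF9 probe 1274 was lower in replicate 3 than in the other libraries, at a log2 CPM of 5.42 (42.3 CPM, 91 reads) against 5.64 to 5.68 in the other 3. The gap was 0.836 of the group's range, above Dixon's critical value for 4 libraries. It was the only one of 32 combinations of probe or summed gene and control group to stand apart in this way, or 3.125%, where chance gives about 5%.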

How the results depend on the processing

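The log2 fold changes of the 5 described probes between CEPT EB and Y27 EB stayed positive under every alternative run, from 1.80 to 3.53. The probes were chosen for this difference in the same libraries, so positive folds were close to given in advance and are no support for it. The correlation of GDF15 and TNFSF9 stayed past the threshold in CEPT EB (r of 0.82 to 0.95); in Y27 EB it was lost with library totals alone (0.377) and the most abundant probe of each gene (0.363), and r ran from 0.474 to 0.653 with each library left out. In group levels, TNFSF9 in Y27 EB minus hESC moved to 1.04 on the log2 scale with reference gene totals, an alternative chosen after seeing the data. The cause of these changes was not tested.

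Probes called between CEPT EB and Y27 EB, 205 of 867, became 339 with library totals (48 higher and 291 lower), 439 with reference gene totals (35 and 404) and 112 with probes summed per gene, where fewer features were tested; DESeq2 gave 121 higher and 79 lower. Replicate numbers were not taken to pair the samples. Same-numbered EB libraries correlated at a median of 0.004, 2 of 16 above 0.1, and none best with its own number. In the controls, same-numbered hESC libraries correlated with none of the lineages above 0.1. Between lineages 3 of 4 did in each pair (median r of 0.25, 0.18 and 0.15 for ectoderm with mesoderm, ectoderm with endoderm and mesoderm with endoderm). In these pairs the highest r were 0.67, 0.52 and 0.54, and the medians over unlike numbers were -0.07, -0.05 and -0.06. There 3, 3 and 2 of 4 libraries were best with their own number. This is a hint of pairing from the data and not the design, and the main fits did not use it. With the replicate block the EB fit called 167 probes, and TNFSF9 in mesoderm against hESC had 1 probe called. Fewer tested features also lowered the control counts: with at least 10 reads in every library 435, 392 and 398 probes were called in ectoderm, mesoderm and endoderm against hESC, 409 and 402 in ectoderm against mesoderm and endoderm, and 399 in endoderm against mesoderm; with probes summed per gene these were 333, 316, 331, 339, 335 and 322.

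Of the GDF15 probes, in the fit of all 48 libraries 0 were called in ectoderm against hESC, against mesoderm and against endoderm; in endoderm against hESC, where 0 were called, 1 was with upper-quartile factors (probe 1191, lower, at -0.41), 3, all higher, with reference gene totals and 1 (probe 1190, higher) with at least 10 reads in every library. Of the TNFSF9 probes, the same fit called 0 in endoderm against hESC, 1 in ectoderm against mesoderm, 1 in ectoderm against endoderm and 0 in endoderm against mesoderm; that last contrast had 1 with upper-quartile factors and 0 with library totals. In mesoderm against hESC 2 TNFSF9 probes were called with library totals, 2 with reference gene totals and 1 with DESeq2, and 0 to 1 with a library left out; in endoderm against hESC it was 1 to 3 with a library left out. Over all 1016 tested probes, the fit of all 48 libraries called 540 to 637 in the control contrasts.

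The reversals were all among folds that were not called in the fits reported above, and those of GDF15 probe 1191 with reference gene totals and TNFSF9 summed per gene were past the threshold in the alternative. In endoderm against hESC, GDF15 probe 1190 was at -0.20 with upper-quartile factors and -0.15 with library totals. GDF15 probe 1191 was at 0.093 with median-ratio factors, 0.54 with reference gene totals, 0.037 with no filter, 0.17 with at least 10 reads, 0.10 with DESeq2, 0.0079 in the fit of all libraries, 0.21 summed per gene and -0.23 to 0.067 with a library left out. GDF15 probe 1192 was at -0.26 with upper-quartile factors, -0.20 with library totals and -0.20 to 0.27 with a library left out. TNFSF9 probe 1273 in mesoderm against hESC was at 0.19 with reference gene totals and 0.56 summed per gene, and probe 1272 in endoderm against mesoderm at -0.19 with library totals.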
